A study of Sus scrofa with 61 samples.

Results

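The genes described here encode the acetylcholine receptor of muscle and proteins that gather it at the neuromuscular junction. The 10 genes looked for were CHRNA1, CHRNB1, CHRND, CHRNE, CHRNG, MUSK, RAPSN, AGRN, NCAM1 and DOK7. A probe was taken as a member if the array named it after one of these genes, or if a gene list of the study gave it that symbol. This found 9 of the 60305 probes, for 6 of the 10 genes, and all 9 were among the 42436 probes kept for testing. CHRNA1, CHRNB1, CHRNE, CHRNG and RAPSN had 1 probe each and NCAM1 had 4, numbered here from the brightest to the dimmest. CHRND, MUSK, AGRN and DOK7 were not analysed here. The array's own name pointed to the gene for 6 probes. The CHRNE probe and NCAM1 probes 1 and 2 were named by the study only. They come from its list of probes with an interaction of age and genotype, which was chosen on these same fetuses, so calls of these 3 probes are not independent evidence and counts are also given for the other 6. NCAM1 probes 3 and 4 are on that list too, under their array names, and the same limit holds for them.

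Muscle fibres contract when acetylcholine released by the motor nerve opens a ligand-gated ion channel on the fibre. In fetal muscle this receptor is built from alpha, beta, gamma and delta subunits, and as the synapse matures the epsilon subunit takes the place of gamma. The nerve secretes agrin (AGRN), which acts through LRP4 on the kinase MuSK and its adaptor DOK7, and rapsyn (RAPSN) then clusters the receptors under the nerve ending. NCAM1 is an adhesion molecule found all over the surface of immature or denervated fibres, and later mostly at the synapse, on satellite cells and on non-myelinating Schwann cells.

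The 60-base probe sequences of the 5 genes with a single probe are shown, as printed on the array from 5′ to 3′, because each of these genes rests on the 1 stretch of transcript that its probe reads. The capitals in the CHRNE probe mark a TAG triplet that ends an open reading frame of the probe. The array calls this probe by a provisional locus name, and the study calls it CHRNE.
CHRNG: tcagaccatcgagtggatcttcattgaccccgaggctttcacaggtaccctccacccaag
CHRNE: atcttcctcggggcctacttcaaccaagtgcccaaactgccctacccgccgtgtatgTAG
CHRNA1: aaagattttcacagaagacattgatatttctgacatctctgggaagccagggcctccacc
CHRNB1: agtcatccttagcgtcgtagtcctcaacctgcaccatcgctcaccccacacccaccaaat
RAPSN: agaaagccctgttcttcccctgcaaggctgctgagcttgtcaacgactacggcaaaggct
Each of the 5 had at least 1 open reading frame over its length, and none shared a run of 20 bases with another probe of the array. Without a transcript sequence it could not be checked whether the CHRNG probe lies within a spliced transcript. Whether its signal includes unspliced RNA was not tested.

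The values come from the longissimus muscle of 61 fetuses, 1 array each, collected at day 90 or day 110 of gestation. LW fetuses were purebred Large White and MS fetuses purebred Meishan. The crosses were LWMS, from MS sows mated to LW boars, and the reciprocal MSLW, from LW sows mated to MS boars. At day 90 there were 8 fetuses of each genotype, and at day 110 there were 9 LW, 8 LWMS, 5 MSLW and 7 MS fetuses. The study compared the days to learn how muscle matures before birth, and the genotypes because MS piglets survive birth better than LW piglets. According to its methods all fetuses were male, and sows were inseminated with mixed semen, so that a litter could hold purebred and crossbred fetuses. The sow of each fetus was not used here, littermates count as separate fetuses, and differences between days or between maternal genotypes are also differences between sows. Whole muscle was measured, so fewer cells of a type and less RNA per cell cannot be told apart.

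Values are background-corrected intensities, quantile normalized and on the log2 scale, and they have no common scale between probes. Adjusted p-values are limma's, corrected by the Benjamini-Hochberg method over all 42436 probes, and a difference was called at an adjusted p under 1%. Per array, 34346 to 45683 probes were well above background. The highest correlation between 2 arrays was 0.992. A few arrays stood apart for member probes. On the array of MSLW day 90 fetus 2, with 752 non-uniform spots against a median of 16, the RAPSN probe was the lowest of all and not well above background, and the CHRNE probe was the highest of its group. The CHRNG probe was not well above background in LWMS day 110 fetuses 7 and 8, and RAPSN was far above the rest in LW day 110 fetus 7.

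Between day 90 and day 110 the signal of the fetal subunit's probe fell and that of the adult subunit's probe rose. CHRNG, the gamma subunit, was lower at day 110 in each genotype, on average by 1.31 on the log2 scale (SE 0.11), or 2.48-fold (95% interval 2.14 to 2.88). CHRNE, the epsilon subunit, was 1.86-fold higher (95% interval 1.64 to 2.10), a log2 difference of 0.89 (SE 0.09). Of the 9 member probes, 8 were called in the age change averaged over the genotypes, 2 higher and 6 lower at day 110, where 72.3% of all probes were called. Over the 6 probes that the array itself named, 1 was higher and 4 were lower. The median of the 9 differences was -0.86, against 0.04 over all probes, and 4 of the 9 probes read NCAM1. In the moderated F test over the 8 groups, 7 of the 9 passed 1% after Bonferroni adjustment, against 44.9% of all probes, and CHRNB1 and RAPSN did not. CHRNE and the NCAM1 probes are on the study's interaction list, drawn from probes that passed such a test on these fetuses. Their part in the counts of this paragraph is therefore not independent evidence. The other probes that passed the F test were CHRNA1 and CHRNG.

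CHRNG in LW fetuses ranged from 6.19 to 7.14 (median 6.67) at day 90 and from 5.50 to 6.32 (median 5.86) at day 110. In MS fetuses it ranged from 6.43 to 7.23 (median 6.76) at day 90 and from 4.84 to 5.56 (median 5.22) at day 110. The MS ranges were far apart, and in LW 7 of the 9 day 110 fetuses lay below every day 90 fetus. In LWMS fetuses the range was 5.95 to 7.03 (median 6.54) at day 90 and 3.14 to 5.57 (median 5.31) at day 110. In MSLW fetuses it was 6.19 to 7.54 (median 6.85) at day 90, and the day 110 fetuses were at 5.60, 5.83, 5.50, 5.26 and 5.31. Neither cross overlapped between the days. The log2 difference was -0.78 (SE 0.20, adjusted p = 0.000649) in LW, -1.54 (SE 0.20, adjusted p = 2.91e-09) in LWMS, -1.38 (SE 0.23, adjusted p = 1.21e-06) in MSLW and -1.55 (SE 0.21, adjusted p = 5.44e-09) in MS. Without LWMS day 110 fetuses 7 and 8, on whose arrays the CHRNG probe was not well above background, the LWMS difference was -1.15 (SE 0.16, adjusted p = 1.31e-08).

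CHRNE in LW fetuses ranged from 5.73 to 6.34 (median 5.94) at day 90 and from 6.23 to 6.83 (median 6.57) at day 110. In MS fetuses it ranged from 5.76 to 6.27 (median 6.02) at day 90 and from 7.20 to 8.38 (median 7.36) at day 110. In LW the ranges overlapped from 6.23 to 6.34, with 5 of 9 day 110 fetuses above every day 90 fetus, and in MS all 7 were. In LWMS fetuses the range was 5.72 to 6.74 (median 6.15) at day 90 and 6.60 to 7.53 (median 7.0) at day 110. In MSLW fetuses it was 5.78 to 7.37 (median 5.99) at day 90, and the day 110 values were 7.42, 6.97, 6.49, 6.96 and 6.73. The MSLW overlap came from the 1 day 90 array named above. The log2 difference was 0.53 (SE 0.16, adjusted p = 0.00536) in LW, 0.82 (SE 0.17) in LWMS, 0.76 (SE 0.19) in MSLW and 1.47 (SE 0.18, adjusted p = 1.11e-10) in MS. Without MSLW day 90 fetus 2 the CHRNE difference in MSLW was 0.94 (adjusted p = 5.47e-06). The LW call was lost with scaling to the 75th percentile, with the median signal, with another background correction and without LW day 110 fetus 7, and over all alternatives its adjusted p ranged from 0.000155 to 0.0193. Normexp background correction gave smaller sizes for these dim probes, -0.71 for the averaged CHRNG difference and 0.59 for that of CHRNE, with both calls kept.

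**Figure D1:**
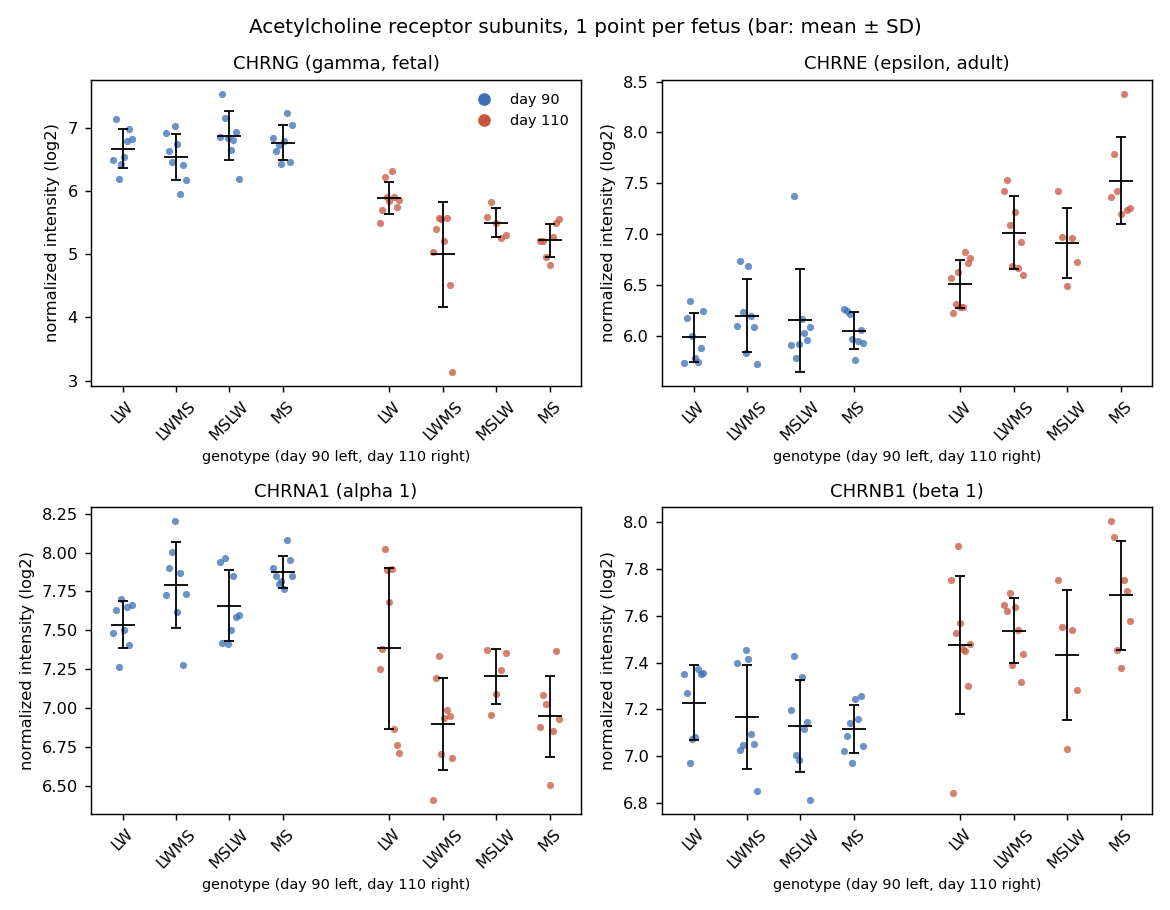
Normalized intensity (log2) of the 4 receptor subunits with a probe, by genotype and day. Each point is a fetus, and the bars give the mean and SD. CHRNG is lower and CHRNE higher at day 110 in each genotype, and the CHRNA1 values of LW at day 110 spread from 6.71 to 8.02.

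At day 90 neither subunit differed between genotypes by the test. The MS minus LW difference was 0.095 for CHRNG (95% interval -0.32 to 0.51) and 0.06 for CHRNE (95% interval -0.28 to 0.40). At day 110 CHRNE was highest in MS (mean 7.52 ± 0.43, SD, n = 7), then LWMS (7.02 ± 0.36, n = 8), MSLW (6.92 ± 0.34, n = 5) and LW (6.51 ± 0.24, n = 9). MS and LW did not overlap and differed by 1.01 (SE 0.17, adjusted p = 3.05e-06), whereas no 2 neighbours in this order differed at 1%. CHRNE is on the study's interaction list, chosen on these fetuses, so its difference between MS and LW is not independent evidence. LWMS against LW gave 0.50 (adjusted p = 0.0266, and 0.009 without MSLW day 90 fetus 2). CHRNG at day 110 was highest in LW (5.89 ± 0.25), then MSLW (5.50 ± 0.23), MS (5.22 ± 0.26) and LWMS (5.0 ± 0.84), and neighbours in this order did not differ by the test. It was lower than in LW by 0.67 in MS (SE 0.21, adjusted p = 0.00742) and by 0.89 in LWMS (SE 0.20, adjusted p = 0.000947), with 6 of the 7 MS fetuses below every LW fetus. Without the 2 arrays on which the CHRNG probe was not well above background, the LWMS difference from LW was -0.50 and no longer called (adjusted p = 0.0221), and MS minus LWMS turned from 0.22 to -0.17 (adjusted p = 0.603), so that MS and not LWMS was the lowest. The MS difference lost its call with scaling to the 75th percentile (adjusted p = 0.0203), with no filter on dim probes (0.0109) and without LW day 110 fetus 7 (0.0103). With normexp the sizes were smaller but still called, -0.34 for MS and -0.38 for LWMS.

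Taken fetus by fetus, CHRNE minus CHRNG sets the adult against the fetal subunit. Since the 2 probes have no common scale, 0 has no meaning on it and only differences between fetuses are read, without a test. At day 90 it ranged from -1.38 to 0.24 over all 32 fetuses (median -0.57), and at day 110 from -0.03 to 3.47 over 29 fetuses (median 1.52). Of the 29 day 110 fetuses, 27 were above every day 90 fetus of any genotype. The mean at day 90 was -0.69 ± 0.41 in LW, -0.34 ± 0.48 in LWMS, -0.72 ± 0.44 in MSLW and -0.72 ± 0.36 in MS. At day 110 it was 0.63 ± 0.39 in LW, 2.02 ± 0.78 in LWMS, 1.42 ± 0.35 in MSLW and 2.30 ± 0.49 in MS. The shift between days was thus 1.31 in LW, 2.14 in MSLW, 2.36 in LWMS and 3.02 in MS. Without LWMS day 110 fetuses 7 and 8 the LWMS mean at day 110 was 1.71 and its shift 2.05, so that the order of the 2 crosses turned. Only within LW did the days overlap, with 2 of 9 day 110 fetuses at or below the highest day 90 fetus. The highest value of all, 3.47, was that of LWMS day 110 fetus 8, in which the CHRNG probe was not well above background. The highest LW fetus of day 110 (1.07) was below the lowest MS fetus (1.70). The CHRNE probe is a member only through the study's interaction list, chosen on these fetuses. Differences between genotypes in this quantity are therefore not independent evidence. For CHRNG alone the MS minus LW difference in age change was not called by limma (adjusted p = 0.068).

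**Figure D2:**
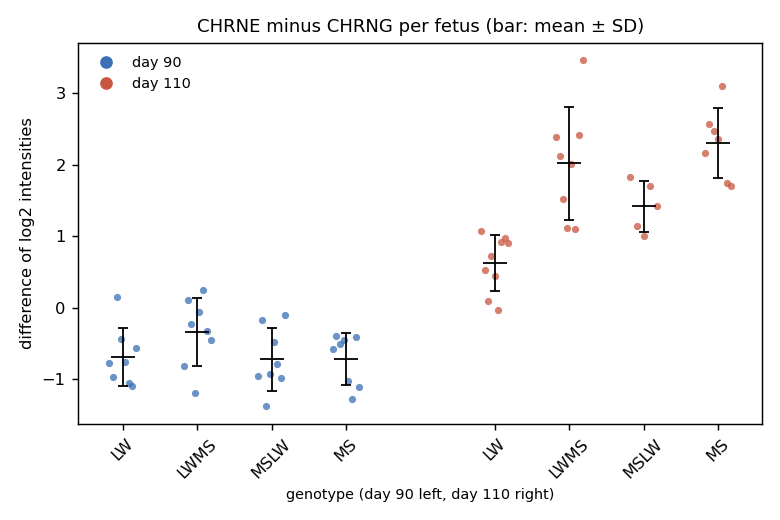
Difference of the log2 intensities of the CHRNE and CHRNG probes in each fetus, by genotype and day. Each point is a fetus, and the bars give the mean and SD. Day 90 fetuses of the 4 genotypes cover a like range, and at day 110 LW fetuses lie lowest and MS fetuses highest by their means. The CHRNE probe comes from the study's interaction list, chosen on these fetuses.

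CHRNA1 encodes the alpha subunit, which binds acetylcholine in both the fetal and the adult receptor. Averaged over genotypes it fell by 0.61 (SE 0.07, adjusted p = 1.17e-10), and within genotypes the fall was called in LWMS and MS. In MS fetuses it ranged from 7.76 to 8.08 (median 7.85) at day 90 and from 6.51 to 7.37 (median 6.93) at day 110, without overlap. In LW fetuses it ranged from 7.26 to 7.70 (median 7.57) at day 90 and from 6.71 to 8.02 (median 7.38) at day 110. Of these 9 LW fetuses, 4 were below and 3 were above every LW fetus of day 90, and their SD of 0.52 was the largest of any group for this probe. In LWMS fetuses the range was 7.28 to 8.20 (median 7.80) at day 90 and 6.41 to 7.33 (median 6.94) at day 110. In MSLW fetuses it was 7.41 to 7.96 (median 7.59) at day 90, and 7.37, 6.95, 7.09, 7.25 and 7.35 at day 110. LWMS overlapped by 1 fetus of day 110, and MSLW did not overlap. The log2 difference was -0.93 (SE 0.15, adjusted p = 2.2e-07) in MS, -0.90 (SE 0.14, adjusted p = 2.62e-07) in LWMS, -0.46 (SE 0.16, adjusted p = 0.0152) in MSLW and -0.15 (95% interval -0.43 to 0.13, adjusted p = 0.369) in LW. Without LW day 110 fetus 7 the CHRNA1 difference in LW was -0.09 (adjusted p = 0.626).

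Between genotypes, CHRNA1 was higher in all 8 MS than in all 8 LW fetuses at day 90, by 0.34, but this was not called (adjusted p = 0.0878). At day 110 the MS minus LW difference was -0.44 (SE 0.14, adjusted p = 0.0124) and the LWMS minus LW difference -0.49 (SE 0.14, adjusted p = 0.01). Both lay at the edge of the threshold, and with the slide as a block they passed it, with an adjusted p of 0.00601 for MS and 0.00602 for LWMS. Leaving out LW day 110 fetus 7 also took them past it (0.00424 and 0.00339). At day 110 the mean was highest in LW (7.38), then MSLW (7.20), MS (6.95) and LWMS (6.90), and no neighbours differed by the test.

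CHRNB1, the beta subunit and like CHRNA1 part of both receptors, was higher at day 110, with an averaged difference of 0.37 (SE 0.05, adjusted p = 1.97e-08). In MS fetuses it ranged from 6.97 to 7.26 (median 7.11) at day 90 and from 7.38 to 8.00 (median 7.71) at day 110. In LW fetuses it ranged from 6.97 to 7.37 (median 7.31) at day 90 and from 6.84 to 7.90 (median 7.48) at day 110. MS did not overlap between days, while in LW 1 day 110 fetus was below all and 7 above all of day 90. In LWMS fetuses the range was 6.85 to 7.45 (median 7.07) at day 90 and 7.32 to 7.70 (median 7.58) at day 110. In MSLW fetuses it was 6.82 to 7.43 (median 7.13) at day 90, and 7.75, 7.55, 7.03, 7.54 and 7.28 at day 110. Both crosses overlapped. The rise was called in MS (0.57, SE 0.11, adjusted p = 8.6e-06) and in LWMS (0.37, SE 0.11, adjusted p = 0.00219). The difference was 0.25 in LW (adjusted p = 0.0375) and 0.30 in MSLW (adjusted p = 0.0292, and 0.00527 without MSLW day 110 fetus 3). No genotype pair differed in CHRNB1 at either day, and MS minus LW at day 110 was 0.21 (95% interval -0.0023 to 0.42).

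RAPSN, the scaffold that binds the receptor from inside the fibre, gave no call in any comparison. Its medians were 7.29, 7.07, 7.17 and 7.14 in LW, LWMS, MSLW and MS at day 90, and 7.29, 7.25, 7.32 and 7.53 at day 110. In 6 of the 8 groups the values lay between 6.52 and 8.15. The exceptions were MSLW at day 90, whose lowest fetus was at 3.25, and LW at day 110, whose highest was at 9.73. The averaged difference between days was 0.25 (95% interval -0.11 to 0.62, adjusted p = 0.196). It rested on few arrays. For RAPSN it was 0.12 (adjusted p = 0.356) without MSLW day 90 fetus 2, 0.19 (adjusted p = 0.301) without LW day 110 fetus 7 and 0.05 (SE 0.10, adjusted p = 0.619) without the 4 arrays named above. Within MSLW the RAPSN difference turned from 0.36 to -0.16 without the first of these fetuses, and within LW from 0.27 to -0.01 without the other.

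NCAM1 was lower at day 110 by all 4 probes and in each genotype. Averaged over genotypes, the log2 difference was -2.04 (SE 0.05, 4.12-fold) for probe 2, -2.04 (SE 0.08, 4.11-fold) for probe 3 and -1.93 (SE 0.07, 3.81-fold) for probe 4. Probe 1 gave a smaller fall by 0.86 (SE 0.07), or 1.82-fold. Within genotypes, the differences of probes 2, 3 and 4 were -1.58, -1.59 and -1.56 in LW and -2.44, -2.55 and -2.43 in MS. They were -2.16, -2.15 and -2.14 in LWMS and -1.99, -1.87 and -1.58 in MSLW. By these 3 probes no day 110 fetus of any genotype reached a day 90 fetus. For probe 1 the difference was -0.46 in LW (adjusted p = 0.00188), -0.84 in LWMS, -0.96 in MSLW and -1.19 in MS, and 1 of 5 MSLW fetuses of day 110 overlapped with day 90. The LW fall of probe 1 was not called with scaling to the 75th percentile (-0.29, adjusted p = 0.058).

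By probe 3, which the array itself names NCAM1, LW fetuses ranged from 11.15 to 11.77 (median 11.44) at day 90 and from 9.38 to 10.42 (median 9.88) at day 110. MS fetuses ranged from 10.54 to 11.38 (median 11.05) at day 90 and from 7.95 to 8.81 (median 8.45) at day 110. Neither genotype overlapped between days, and at day 110 all 7 MS fetuses were below all 9 LW fetuses. LWMS fetuses ranged from 10.82 to 11.34 (median 11.09) at day 90 and from 8.70 to 9.33 (median 8.81) at day 110. MSLW fetuses ranged from 10.87 to 11.61 (median 11.25) at day 90 and were at 8.52, 9.33, 9.97, 9.33 and 9.50 at day 110. Both crosses lay between the purebreds at day 110 by their means. The order of the means was LW (9.85), MSLW (9.33), LWMS (8.93) and MS (8.42). Every neighbouring pair had an adjusted p above 1%, namely 0.0285, 0.212 and 0.0219, while MS differed from LW by -1.43 (SE 0.15, adjusted p = 1.39e-11) and from MSLW by -0.91 (adjusted p = 0.00018). With the slide as a block MSLW against LW (0.000976) and MS against LWMS (0.000391) were called, and MSLW against LW also without MSLW day 110 fetus 3 (0.00418). The order of the crosses was not the same by every probe, since by probe 1 the mean of LWMS (11.37) was above that of MSLW (11.07). By NCAM1 probe 4 MSLW (6.91) was above LW (6.71), but without MSLW day 110 fetus 1 that difference turned to -0.03 (adjusted p = 0.93).

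By probe 1, LW fetuses ranged from 12.33 to 12.64 at day 90 and from 11.71 to 12.28 at day 110, and MS fetuses from 11.55 to 12.28 and from 10.08 to 11.21. All 8 MS fetuses were below all 8 LW fetuses already at day 90. The difference of -0.72 (SE 0.13, adjusted p = 3.66e-05) was the only call among the 9 probes between MS and LW at day 90, where 12.8% of all probes were called. The other probes did not give it, with -0.47 (adjusted p = 0.0162) for probe 3, 0.18 (adjusted p = 0.224) for probe 2 and 0.29 (adjusted p = 0.158) for probe 4, so that probes 2 and 4 had the opposite sign. Probe 3 was called with the slide as a block (9.06e-05) and without MSLW day 110 fetus 1 (0.00823). In the MSLW fetuses of day 110 the probes also parted. Fetus 1 was the lowest of the 5 by probe 1 (10.44), probe 2 (8.97) and probe 3 (8.52) and the highest by probe 4 (7.88).

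**Figure D3:**
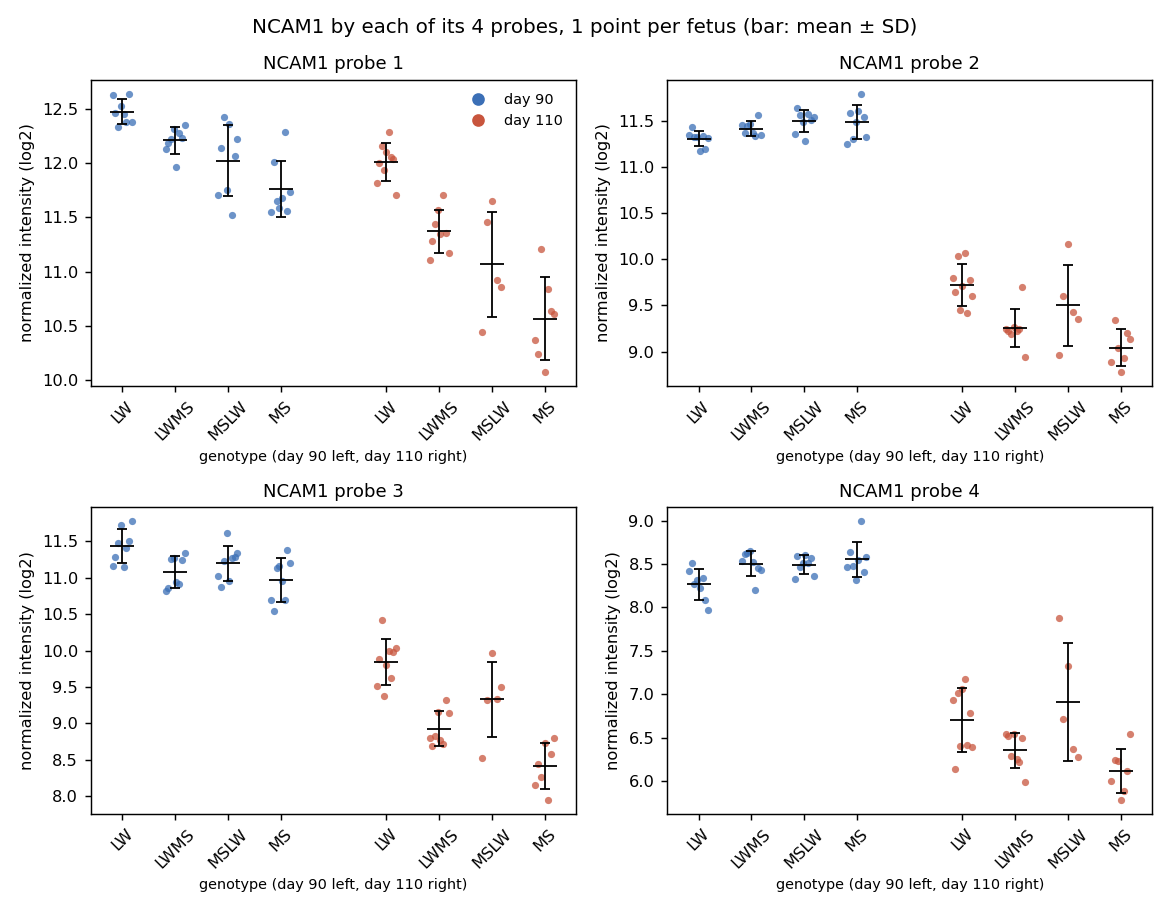
Normalized intensity (log2) of the 4 NCAM1 probes by genotype and day. Each point is a fetus, and the bars give the mean and SD. All 4 probes are lower at day 110, and probe 1 alone separates MS from LW without overlap at day 90.

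Markers of cell types, each read by its brightest probe, also changed between the days, some higher and some lower. Of 5 fibroblast markers (PDGFRA, COL1A1, COL3A1, DCN and LUM) all 5 fell between the days, with a median of -1.44, where 37.3% of all probes rose and 35.0% fell by the same test. Their summed intensity on the log2 scale was 18.19 to 18.57 at day 90 and 16.19 to 17.52 at day 110, and at day 110 it was 16.83 to 17.52 in LW and 16.19 to 16.57 in MS. For 4 of these 5 the age change of MS differed from that of LW by the test, as it did for 5.96% of all probes. Of 7 Schwann cell and nerve markers 4 rose and 1, NGFR, fell, and of the 3 satellite cell and myoblast markers tested PAX7 rose and MYOD1 fell, by 0.99. Of 7 muscle fibre markers 5 rose and 1 fell, and their sum was 20.63 to 20.80 at day 90 and 20.77 to 20.93 at day 110. Other probes of some marker genes went the other way. The averaged differences of the other probes were -2.29 to 0.32 for TNNT3 and -0.16 to 0.38 for MYLPF. They were -0.09 to 0.98 for ACTA1 and -1.24 to 0.13 for LUM. Of the endothelial markers 1 rose and 3 fell, of 4 macrophage markers 2 fell, of 4 adipocyte markers 3 fell, and of the erythroid markers 1 rose. The difference between MS and LW in age change was also called for PAX7 (1.14), S100B (-0.68), MBP (-0.77) and TNNT3 (0.37). CDH15 had no probe kept, and CD68 (4.20), MYF5 (4.31) and ALAS2 (4.48) had the lowest means at day 110, within the range of the lowest value well above background on an array (2.89 to 5.42). The part of these shifts in the results was not tested.

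Within genotypes, the age change was called for 6 of the 9 probes in LW (1 higher, 5 lower), 8 in LWMS (2 higher, 6 lower), 6 in MSLW (1 higher, 5 lower) and 8 in MS (2 higher, 6 lower). Of all probes 45.3% were called in LW, 50.9% in LWMS, 44.6% in MSLW and 56.6% in MS. The numbers for the 6 probes named by the array were 3, 5, 3 and 5. The age change of MS differed from that of LW for 6 of the 9 probes, against 5.96% of all probes, and for 3 of the 6 named by the array. CHRNE and the NCAM1 probes are on the study's interaction list, which was chosen on these fetuses. Neither count is therefore independent evidence, and CHRNA1 was the only other call. MS minus LW was 0.95 for CHRNE (SE 0.24, adjusted p = 0.0054) and -0.78 for CHRNA1 (SE 0.20, adjusted p = 0.00686), whose change within LW was not called. All NCAM1 probes fell more in MS, with -0.73 (adjusted p = 0.00602), -0.86 (3.64e-05), -0.96 (0.00104) and -0.87 (0.00219) for probes 1 to 4. CHRNG gave -0.76 (SE 0.29, adjusted p = 0.068), CHRNB1 0.32 (adjusted p = 0.144) and RAPSN -0.12 (95% interval -1.11 to 0.87), which turned to 0.15 without LW day 110 fetus 7. The CHRNG difference passed with LW and MS fitted alone (adjusted p = 0.00831) and without the 4 arrays named above (0.00788). The CHRNA1 call was lost with LW and MS fitted alone (0.0174), with no filter on dim probes (0.0106) and with scaling to the 75th percentile (0.01).

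**Figure D4:**
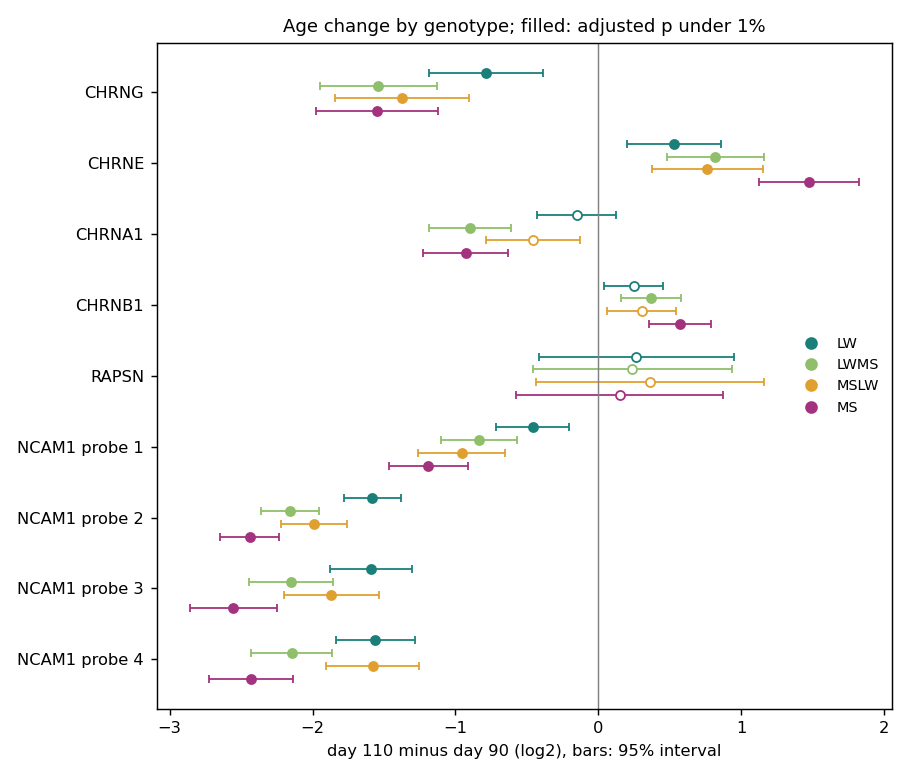
Log2 difference between day 110 and day 90 of the 9 probes in each genotype, with 95% intervals. Filled points are called at an adjusted p under 1%. MS lies farther from 0 than LW for each probe but RAPSN, and the CHRNA1 interval of LW spans 0.

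Each of the 8 slides held fetuses of 6 to 8 groups. The mean difference between days had the same sign on all 8 slides for every member probe except RAPSN, with -1.62 to -0.95 for CHRNG, 0.68 to 1.20 for CHRNE, -0.79 to -0.37 for CHRNA1 and 0.20 to 0.72 for CHRNB1. RAPSN was higher at day 110 on 6 slides and lower on 2. The MS minus LW difference in age change could be formed on 6 slides. It was below 0 on all 6 for CHRNA1 (-1.63 to -0.43) and for the 4 NCAM1 probes, above 0 on all 6 for CHRNE (0.26 to 1.77), and below 0 on 5 of 6 for CHRNG (-1.37 to 0.24). At day 110, MS minus LW was above 0 on 6 of 6 slides for CHRNE and below 0 on 6 of 6 for CHRNG. CHRNE and the NCAM1 probes are on the study's interaction list, chosen on these same fetuses. Their shared sign over slides is therefore not independent evidence.

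Among the 12 genotype pairs within a day, few others were called. At day 90 limma called 0 of 9 probes between MSLW and LWMS (0.500% of all probes), LWMS and LW (2.52%), MSLW and LW (1.83%), MS and LWMS (1.48%), and MS and MSLW (2.06%). At an unadjusted p under 0.05 the first of these pairs had 0 and each other pair had 1 probe, an NCAM1 probe, and the unmoderated test also called 0 in these 5 pairs. With the slide as a block NCAM1 probe 3 was called between LWMS and LW (-0.36, adjusted p = 0.00832). At day 110, 6 of 9 were called between MS and LW (29.0% of all probes), namely CHRNE, CHRNG and the NCAM1 probes. Between LWMS and LW it was 4 (9.05%), CHRNG and NCAM1 probes 1 to 3. Between MSLW and LW it was 1 (4.98%) and between MS and LWMS 1 (4.30%), both NCAM1 probe 1. Between MS and MSLW it was 3 (4.05%), NCAM1 probes 2 to 4. In this last comparison probe 2 (adjusted p = 0.00809) lost its call without any of MSLW day 110 fetuses 2 (0.0254), 3 (0.134) and 4 (0.0107) and with the median signal, normexp, the deposited values or no filter (0.0127 to 0.0179), probe 4 without fetus 1 (0.0145) or 3 (0.0103), and probe 1 gained one without fetus 1 (0.00371). Over the 6 probes named by the array the day 110 counts were 3 between MS and LW, 2 between LWMS and LW and 2 between MS and MSLW, and 0 in the other pairs. CHRNE and the NCAM1 probes are on the study's interaction list, chosen on these fetuses. The day 110 counts over the 9 and over the 6 probes are therefore not independent evidence, and CHRNG was the only other probe called. The reciprocal crosses, MSLW and LWMS, differed in 0 of 9 probes at day 110 (0.917% of all probes), with 5 at an unadjusted p under 0.05 and 0 by the unmoderated test. NCAM1 probe 4 was 0.55 higher in MSLW (adjusted p = 0.0469). The NCAM1 probe 4 difference was called without MSLW day 110 fetus 5 (adjusted p = 0.00882) and was 0.31 (adjusted p = 0.327) without fetus 1.

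The crosses allow the age change to be set against the genotype of the sow and of the boar. An interaction of age with maternal genotype was called for 4 of the 9 probes, against 3.04% of all probes, and for 3 of the 6 named by the array. The NCAM1 probes among them are on the study's interaction list, chosen on these fetuses, so neither count is independent evidence. With a MS rather than a LW sow the age change differed by -0.62 for CHRNA1 (SE 0.15, adjusted p = 0.00465) and by -0.52, -0.62 and -0.71 for NCAM1 probes 2 to 4. CHRNE gave 0.48 (adjusted p = 0.0758) and CHRNG -0.49 (adjusted p = 0.146, and -0.27 with 0.289 without LWMS day 110 fetuses 7 and 8). An interaction with paternal genotype was called by limma for 0 of 9 probes (0.462% of all probes), with 4 at an unadjusted p under 0.05, and NCAM1 probe 2 (-0.34, adjusted p = 0.0783) was called without MSLW day 110 fetus 3 (-0.42, adjusted p = 0.00817). CHRNE gave 0.45 (SE 0.18, adjusted p = 0.203) for the paternal genotype. In the crosses alone the reciprocal difference in age change was called for 0 of 9 probes (0.0330% of all probes), with 2 at an unadjusted p under 0.05, CHRNA1 and NCAM1 probe 4. The unmoderated test was not run for these parental terms. With the crosses fitted alone maternal and paternal genotype are opposite, so only the maternal minus the paternal term can be formed. That is another quantity than the maternal interaction. It was -0.44 for CHRNA1 (adjusted p = 0.562) and -0.57 for NCAM1 probe 4 (adjusted p = 0.501). For NCAM1 probes 2 (-0.17, adjusted p = 0.894) and 3 (-0.28, adjusted p = 0.846) it was not called either. NCAM1 probe 3 (adjusted p = 0.00573) lost its maternal call with the median signal (0.0134), normexp (0.0169) and the deposited values (0.0132), and without MSLW day 110 fetus 3 (0.0153) or 5 (0.0104).

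Of 50 genes of the junction beyond the members, 29 had a probe and 25 could be tested. By their brightest probe, 7 were higher and 12 lower at day 110, and 6 were not called, with a median difference of -0.21 against 0.04 over all probes, of which 72.3% were called. The largest called increases were those of DNAJA3, a co-chaperone that binds MuSK (1.26, SE 0.03), and DTNA, the alpha-dystrobrevin of the postsynaptic membrane (1.08, SE 0.05). Next among the called genes came the cytolinker PLEC (0.62, SE 0.08) and the syntrophin SNTB1 (0.36, SE 0.05). The PLEC probe was dim (mean 5.11 at day 90). Its difference was 0.42 with the median signal and 0.27 with normexp, still called but below the 0.35 of SNTB1 with normexp. ACHE, the acetylcholinesterase of the synaptic cleft, had 0.38 and was not called (adjusted p = 0.0227). It was called with the median signal (0.0089) and the deposited values (0.00476). With scaling to the 75th percentile (0.39, adjusted p = 0.0217) and with normexp (0.10, adjusted p = 0.122) ACHE was not called. Its means were 4.38 at day 90 and 4.76 at day 110. Both lay within the range of the lowest value well above background on an array (2.89 to 5.42). The largest called decreases were those of LAMA4, a laminin chain of the synaptic basal lamina (-1.28, SE 0.04), the kinase FYN (-1.18, SE 0.04), the syntrophin SNTB2 (-1.15, SE 0.04) and the transcription factor MYOG, which drives receptor genes in muscle without nerve input (-1.06, SE 0.07). By group, agrin, LRP4 and MuSK signalling had 1 higher and 4 lower of 9, and the synaptic basal lamina 1 higher and 2 lower of 5. The postsynaptic cytoskeleton had 4 higher and 2 lower of 6, and the neuregulin pathway 1 higher and 3 lower of 4. MYOG was the only gene tested among activity-regulated factors. Of the nicotinic subunits that are not members, 2 of 11 had a probe and neither was bright enough to be tested.

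For LRP4, the receptor of agrin, the difference between days was -0.26 in LW and 0.45 in MS, its average was not called (adjusted p = 0.485), and MS exceeded LW by 0.71 (SE 0.13, adjusted p = 7.7e-05). For PAK1, a kinase of receptor clustering, it was -0.90 in LW and 0.19 in MS, a difference of 1.09 (SE 0.20, adjusted p = 0.000119). For LAMA4 it was -0.89 in LW and -1.65 in MS, a difference of -0.76 (SE 0.11, adjusted p = 2.73e-06). For DAG1, dystroglycan, the change was 0.57 in LW and 0.11 in MS, a difference of -0.45 (SE 0.10, adjusted p = 0.00197). LRP4, PAK1 and LAMA4 were also called for the interaction of age with maternal genotype and DAG1 for that with paternal genotype. With scaling to the 75th percentile LRP4 (0.26), CRKL (0.20) and LAMB2 (0.38) were called as higher at day 110 over all genotypes, the averaged PAK1 call was lost (adjusted p = 0.0129, as with the median signal, 0.0181, and the deposited values, 0.0182), and the DAG1 difference between genotypes was not called (0.0111), nor was it with the median signal, normexp or the deposited values. The same scaling added calls of the MS minus LW difference for DNAJA3 (0.48, adjusted p = 0.0013), LAMB2 (0.67, adjusted p = 0.00809) and LAMA5 (0.70, adjusted p = 0.00751). The other LAMB2 probe kept went the opposite way between days in the main fit, with -0.62 against 0.12 for the brightest.

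**Figure D5:**
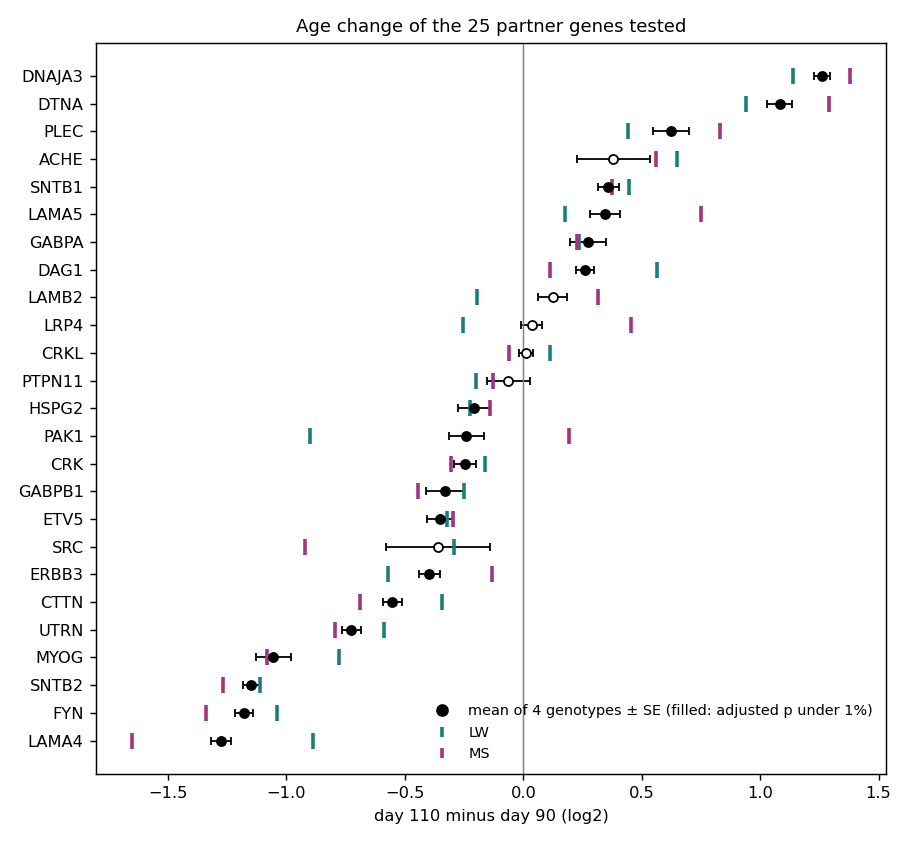
Log2 difference between day 110 and day 90 of the 25 other junction genes tested. Black points are means over the 4 genotypes with their SE, filled where called, and ticks give LW and MS. The ticks of LRP4 and PAK1 lie on either side of 0.

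Within groups and slides, CHRNG and CHRNE were weakly related, with a correlation of 0.14 between their residuals over the 61 fetuses. Against the other members CHRNG gave 0.37 with CHRNB1 and 0.20 with CHRNA1, and CHRNE gave 0.24 and -0.27. Of 18584 named probes, those most like CHRNG were for B3GAT3 (0.66), CNRIP1 (0.66), NOL12 (0.63), BOP1 (0.61) and GOLGA2 (0.61). Those most like CHRNE were for SIT1 (0.68), AMH (0.63), MAPKAPK2 (0.62), NSUN4 (0.62) and STAT6 (0.61). The points of each correlation share arrays and the residuals include array quality, and the values are the highest of many. The arrays named above that stood apart for CHRNG and CHRNE were kept, and correlations without them were not computed.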

How the data were processed

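Total RNA of longissimus muscle was labelled with Cy3 and hybridized to 1-colour Agilent arrays. Per spot, the authors deposited a background-corrected intensity from Agilent Feature Extraction 10.10.1.1 (version from the submitters' processing notes), and they also deposited a table of quantile-normalized log2 values, used as an alternative. The deposited intensity was not normalized between arrays.

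Controls were dropped, non-uniform spots (4 to 802 per array) were set to missing, intensities were quantile normalized and log2 transformed, and spots of 1 probe were averaged. A probe was kept if, in any group, 80% or more of arrays showed it well above background. The number of arrays limits the precision. Names came from the array for 17428 kept probes, the study's lists for 2177 and RefSeq accessions for 398.

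Genotype and day came from the sample labels. The 8 groups of 61 arrays were fitted with limma 3.58.1 in R 4.3.3. Contrasts were days within genotypes and averaged, genotype pairs within days, and MS against LW in age change. A second model held age, maternal and paternal genotype and their pairwise interactions. The study's sow effect could not be fitted. Tests were two-sided with Benjamini-Hochberg adjustment at 1%, and were checked on simulated data. For NCAM1 the main probe is the brightest (probe 1), and all probes are given. Every member is named. Of the other junction genes the 4 largest changes each way and those with a called interaction are named, and with CHRNG and CHRNE the 5 genes most alike in residuals of group and slide. Marker lists covered muscle fibre, Schwann cell and nerve, satellite cell, fibroblast, endothelium, macrophage, adipocyte and erythroid cells. The members and lists were chosen with earlier results of these data known.

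Alternatives changed the normalization, signal, background correction, filter, marked spots, slide, test, probe and samples. A search of promoters for motifs was not run, and no genome was used, so no positions are given. Figures were drawn with matplotlib 3.10.9.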

Additional observations from a re-analysis of the deposited data

Results flagged for a closer look

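In 72 groups of a probe and a genotype and day, 5 had a fetus far from the others, and chance marks about 1 in 20. These were CHRNE in MSLW at day 90, with the highest fetus at 7.37, CHRNG in LWMS at day 110, with the lowest at 3.14, NCAM1 probe 2 in LWMS at day 110, with the highest at 9.70, RAPSN in LW at day 110, with the highest at 9.73, and RAPSN in MSLW at day 90, with the lowest at 3.25. The CHRNE and RAPSN values in MSLW at day 90 came from the same array.

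The change between days differed between MS and LW by limma's test of the difference. The difference was -0.78 for CHRNA1, 0.95 for CHRNE, and -0.73, -0.86, -0.96 and -0.87 for NCAM1 probes 1 to 4. It differed with the maternal genotype by -0.62 for CHRNA1 and by -0.52, -0.62 and -0.71 for NCAM1 probes 2 to 4. CHRNE and the NCAM1 probes are on the study's list of interactions chosen on the same fetuses.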

How the results depend on the processing

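The averaged age change kept its direction and its side of the threshold for all 9 probes under each alternative that kept the probe, as did the MS minus LW difference in age change for CHRNE and the NCAM1 probes. With the slide as a block the number of member probes called became 2 for MS minus LW and 1 for LWMS minus LW at day 90, and 2 each for MSLW minus LW and MS minus LWMS at day 110, through NCAM1 probe 3. In the crossbred fetuses alone it was 0 for the maternal minus the paternal term, the only parental term that can be formed there. Without single MSLW day 110 fetuses it ranged from 1 to 2 for MS minus LW at day 90 and for MSLW minus LW at day 110, from 1 to 3 for MS minus MSLW at day 110, and from 0 to 1 for age by paternal genotype and for MSLW minus LWMS at day 110. With NCAM1 probe 2 in place of probe 1, MS minus LW at day 90 reversed to 0.18, and with probe 4 it reversed to 0.29 and MSLW minus LW at day 110 to 0.21, which was -0.03 without MSLW day 110 fetus 1. The cause was not tested. Of all probes, the slide as a block moved the calls of age by maternal genotype from 1291 to 2144, and leaving out single MSLW day 110 fetuses moved those of MSLW minus LW from 2115 to as low as 1310, of MSLW minus LWMS from 389 to 239, of MS minus MSLW from 1718 to 916 and of age by paternal genotype from 196 to 307. Scaling to the 75th percentile raised the higher share of all calls for MS against LW in age change from 42.9% to 63.7%. The fits without MSLW day 90 fetus 2, LWMS day 110 fetuses 7 and 8 or LW day 110 fetus 7 were chosen after seeing the data. Replicate numbers were given in accession order and do not pair fetuses. Fetuses were not paired by litter, because the sow of each was not used. Slides entered only as a block and in the differences within slides. The low signal of CHRNG at day 110 limits its precision.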
